A study of Mus musculus with 6 samples.

Results

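The 10 genes of de novo fatty acid synthesis and its control described here were followed in the mammary gland of bitransgenic mice at 2 ages: Acly, Me1, Acaca, Fasn, Elovl6, Scd1, Scd2, Srebf1, Mlxipl and Thrsp. They were found by gene symbol in the array's annotation, which gave 24 probe sets for these 10 genes among 18193 genes with a symbol of their own on the array. The mice were females from a cross of the LH mouse, the name used in the labels, with MMTV-neu mice, whose neu oncogene is driven in mammary epithelium by a promoter of the mouse mammary tumour virus. Animals of both ages carried this cross, no treatment was named, and glands of parental or wild-type mice were not analysed here. What the LH mouse carries is not described in the sources used here. Each age was represented by 3 arrays, and each array by a pool of RNA from 3 animals, so 9 mice stood behind the values at 5 weeks and 9 behind those at 10 weeks.

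Fatty acids are built in the cytosol from citrate exported by mitochondria. ATP citrate lyase (Acly) splits citrate into acetyl-CoA, acetyl-CoA carboxylase (Acaca) makes malonyl-CoA from it, and fatty acid synthase (Fasn) joins these units with NADPH, part of which comes from malic enzyme (Me1). Elovl6 lengthens the product and the stearoyl-CoA desaturases Scd1 and Scd2 put in a double bond. The transcription factors SREBP1 (Srebf1) and ChREBP (Mlxipl) switch these genes on in response to insulin and glucose, and Thrsp (Spot 14) supports synthesis in fat and in the lactating gland. The mammary gland holds both fat cells and milk-producing epithelium, and each of these can run the pathway.

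Values are linear signal intensities in array units, 1 for each probe set and pool, on arrays whose median signals lay between 156.4 and 172.5 and whose highest signals lay between 15339.6 and 22312.4. Signals of different probe sets are not on a common scale, so levels were compared between ages and not between genes. Differences are 10 weeks minus 5 weeks on the scale of log2(signal + 32), from limma across 27022 probe sets, and a difference was called at an adjusted p under 0.05. Arrays of an age correlated at 0.973 to 0.978 on the log2 scale, and arrays of different ages at 0.932 to 0.955. Skeletal muscle markers were far lower in 10-week pool 1 than in the other pools (list mean 8.82 on the log2 scale against 11.82 to 13.44), and lymph node markers were highest in 5-week pool 2 (9.42 against 6.90 to 8.21). The labels do not say whether pools differed in anything but their animals. The p-values set the difference between ages against the spread of pools within an age, moderated over all probe sets. Any unlabelled difference between the pools of the 2 ages cannot be told apart from age.

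Of the 10 genes, 1 passed the test between the ages. Mlxipl, which encodes the glucose-responsive factor ChREBP, was lower at 10 weeks by a log2 difference of -1.81 ± 0.20 (SE), and none of the other 9 was called in either direction. Over all 13002 genes tested, 34.1% were called, 15.3% higher and 18.7% lower, so the share of 1 in 10 lay below that of the array as a whole. The median difference of the 10 genes was -0.06, beside 0.00 for all genes tested. Of the 24 probe sets, 22 passed the filter on dim signals. Among these 22, only that of Mlxipl was called, while 28.8% of all probe sets tested were, and the ages did not overlap for 2 of them, beside 45.1% of all probe sets tested. The ages did not overlap for 2 of the 10 genes, Mlxipl and Srebf1, beside 50.3% of all genes tested. One scaling gave another count: with quantile normalization between arrays, Fasn (-0.31, adjusted p = 0.0369) and Scd2 (-0.36, adjusted p = 0.0477) were called lower along with Mlxipl.

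**Figure D1:**
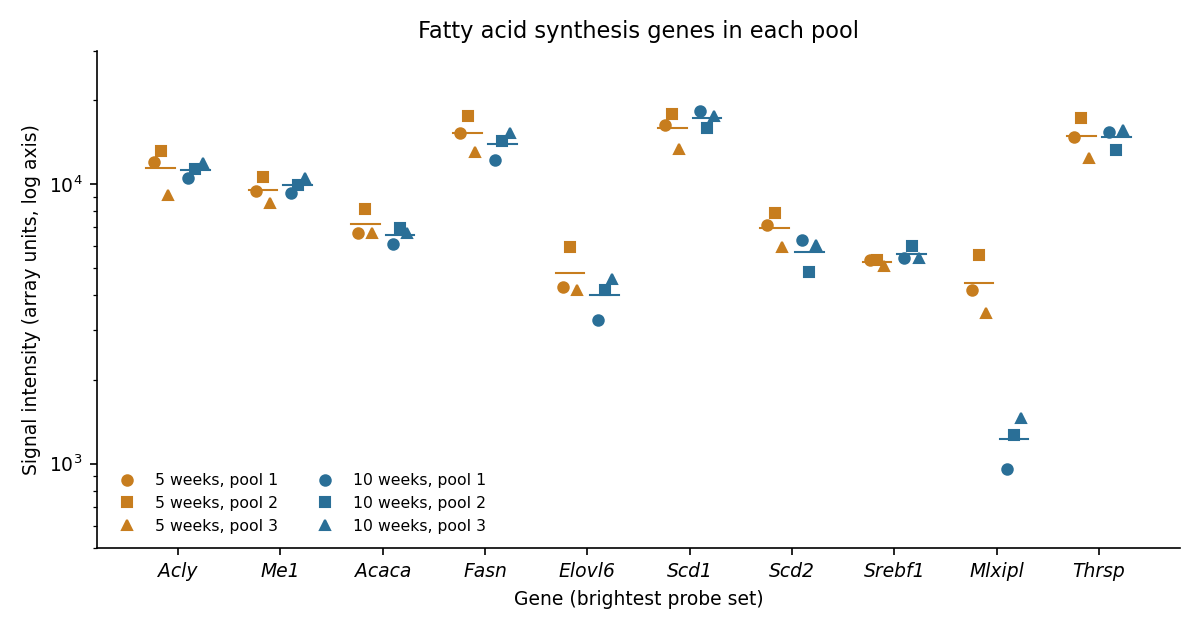
Signal intensity (log axis) of the brightest probe set of each of the 10 genes in the 3 pools at 5 weeks and the 3 pools at 10 weeks, with bars at the mean of each age. Mlxipl lies between 3459.8 and 5585.0 at 5 weeks and between 959.1 and 1455.5 at 10 weeks. None of the other genes was called, and except for Srebf1 their signals overlap between the ages.

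Mlxipl had a signal of 4191.4, 5585.0 and 3459.8 in 5-week pools 1, 2 and 3 and of 959.1, 1268.3 and 1455.5 in 10-week pools 1, 2 and 3. Every pool at 5 weeks lay above every pool at 10 weeks. The mean fell from 4412 ± 1080 (SD, n = 3) to 1228 ± 251 (SD, n = 3), which is 3.59-fold lower. The log2 difference had a 95% interval of -2.26 to -1.37 and an adjusted p of 0.000318 by limma. Of 13002 genes, 180 (1.38%) had a difference at or under this one. The difference stayed between -1.97 and -1.63 when any pool was left out, with an adjusted p of at most 0.00182. Mlxipl was measured by 1 probe set, so no other probe set could be set beside it, and which of its annotated transcripts that probe set detects was not examined. Because these are whole glands, fewer cells of a type and less RNA per cell cannot be told apart.

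RefSeq lists 2 start sites for Mlxipl on GRCm38.p6, and the windows around them are shown because this is the gene that fell. The windows of Fasn and of the Srebf1 start listed as number 3 are shown beside them, as genes of the pathway that were not called. Each window runs from 250 bases before the start to 50 after it, on the strand of the gene, and capitals mark matches to any of 6 motifs searched on both strands.
Mlxipl, first listed window, chr5:135106641-135106940, plus strand: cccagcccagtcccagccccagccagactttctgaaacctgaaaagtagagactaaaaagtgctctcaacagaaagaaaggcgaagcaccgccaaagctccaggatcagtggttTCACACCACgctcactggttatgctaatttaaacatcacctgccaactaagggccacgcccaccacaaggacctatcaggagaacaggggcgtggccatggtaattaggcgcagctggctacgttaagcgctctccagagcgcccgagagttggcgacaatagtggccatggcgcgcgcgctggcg
Mlxipl, second listed window, chr5:135089640-135089939, plus strand: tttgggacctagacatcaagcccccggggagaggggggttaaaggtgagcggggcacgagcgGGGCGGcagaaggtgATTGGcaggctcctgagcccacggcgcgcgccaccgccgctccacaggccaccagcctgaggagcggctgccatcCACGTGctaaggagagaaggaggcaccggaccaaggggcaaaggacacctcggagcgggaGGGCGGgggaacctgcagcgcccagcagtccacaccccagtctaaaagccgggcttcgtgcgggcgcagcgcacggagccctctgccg
Fasn, chr11:120824498-120824797, minus strand: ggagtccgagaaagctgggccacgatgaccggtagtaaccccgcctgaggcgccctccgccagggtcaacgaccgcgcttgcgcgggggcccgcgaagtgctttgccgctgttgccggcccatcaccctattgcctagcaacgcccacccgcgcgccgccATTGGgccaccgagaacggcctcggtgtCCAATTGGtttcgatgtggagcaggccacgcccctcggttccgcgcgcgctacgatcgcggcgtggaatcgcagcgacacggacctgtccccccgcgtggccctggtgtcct
Srebf1, window 3, chr11:60210422-60210721, minus strand: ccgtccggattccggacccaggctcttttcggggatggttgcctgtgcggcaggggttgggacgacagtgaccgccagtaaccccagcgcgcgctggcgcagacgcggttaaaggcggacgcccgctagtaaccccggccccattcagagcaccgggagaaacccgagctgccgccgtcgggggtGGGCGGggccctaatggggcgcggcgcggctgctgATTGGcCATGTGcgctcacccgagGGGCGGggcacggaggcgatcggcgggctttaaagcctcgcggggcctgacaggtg

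The first Mlxipl window held TCACACCAC, 136 bases before the start, a match to TCACNCCAC, the core that SREBP factors bind in sterol-regulated promoters. Of 32851 windows of this length, 1.24% held that core on either strand, and of the 8 genes of the pathway with a window in the table, Mlxipl was the only one (Scd1 and Scd2 have none there). The second Mlxipl window held the E box CACGTG, 98 bases before the start, a hexamer of the kind that ChREBP and USF factors bind, which 7.15% of all windows held. Window 3 of Srebf1 held the E box CATGTG, 24 bases before its start, as did the second of the 2 Me1 windows, and 14.2% of all windows held it. The Fasn window held 3 CCAAT boxes (CCAAT, in 37.4% of all windows), which begin 90, 62 and 59 bases before the start, and the last pair overlap each other. GC boxes (GGGCGG, in 35.7% of all windows) occurred in 4 of the 8 genes, and the DR4 element, the type that LXR binds, in none of them and in 0.0152% of all windows. Me1 and Mlxipl have 2 windows each and Srebf1 has 3. Counts of genes are therefore not the same measure as shares of windows. The DR4 search counted only exact matches to a 16-letter pattern, which 5 of 32851 windows held. The other searches, such as that for the 9-letter sterol core, counted only exact matches as well. Inexact forms were not searched for, so the lack of a match does not show that a gene lacks an LXR site or an SREBP site. All the matches given here describe the letters of the windows only.

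The 3 genes whose pattern over the 6 pools was most like that of Mlxipl were Itgb3, Mettl7a1 and Prrx1. Likeness was the root mean square difference between log2 values after each gene's own mean was taken off, and it was 0.0840, 0.0966 and 0.152. Itgb3, the beta 3 integrin chain, fell by 1.74, from a mean signal of 416 ± 129 (SD, n = 3) to 101 ± 28.9 (SD, n = 3). At such low signals the offset matters: Itgb3 had -2.03 with an offset of 1 and -1.34 with one of 100. Mlxipl had -1.84 and -1.76 with these offsets, and whether Itgb3 keeps its rank under them was not tested. Mettl7a1, a methyltransferase-like gene, fell by 1.83, from 4859 ± 667 (SD, n = 3) to 1357 ± 302 (SD, n = 3). Prrx1, a homeobox gene of mesenchymal cells, fell by 1.71, from 1824 ± 166 (SD, n = 3) to 536 ± 70.1 (SD, n = 3). In all 3, as in Mlxipl, 5-week pool 2 was the highest pool and 10-week pool 1 the lowest. This follows largely from how the 3 were chosen.

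Srebf1 was measured at 5338.0, 5363.8 and 5103.4 at 5 weeks and at 5459.4, 6029.1 and 5429.7 at 10 weeks. The pools at 10 weeks all lay above those at 5 weeks, but by little: the means were 5268 ± 143 (SD, n = 3) and 5639 ± 338 (SD, n = 3). The gene was not called, at a log2 difference of 0.10 ± 0.09 (SE; adjusted p = 0.437; 95% interval -0.10 to 0.29). Within each array, the log2 ratio of Mlxipl to Srebf1 was -0.35, 0.06 and -0.56 at 5 weeks and -2.47, -2.22 and -1.88 at 10 weeks. The ratio thus changed by -1.91 with no overlap, and the exact two-sided permutation test over the 20 assignments of arrays to ages gave p = 0.1, the smallest it can give (0.2 adjusted over the 4 ratios tested).

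Thrsp was among the bright signals at both ages. Its brightest probe set gave 14770.7, 17260.4 and 12395.7 at 5 weeks and 15353.9, 13236.9 and 15561.7 at 10 weeks. These ranges overlapped, and the log2 difference was 0.00 ± 0.13 (SE), with a 95% interval of -0.29 to 0.29. The second probe set, from 10196.1 to 13624.7 at 5 weeks and from 9103.8 to 11582.7 at 10 weeks, had a difference of -0.17 (adjusted p = 0.358). Another, dim one (66.6 to 151.2 over all pools) had 0.32 (adjusted p = 0.329). With quantile normalization the brightest probe set had -0.18 (adjusted p = 0.0861), so no direction can be given for Thrsp. The log2 ratio of Thrsp to Fasn was 0.33 in 10-week pool 1 and between -0.11 and 0.03 in the other 5 pools, and it changed by 0.13 between the ages (exact permutation p = 0.5, 0.667 adjusted over 4).

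Acly, which supplies acetyl-CoA, had signals of 12035.1, 13104.4 and 9126.7 at 5 weeks and of 10549.3, 11325.3 and 11942.4 at 10 weeks. The lowest and the highest of the 6 both came from 5 weeks. The log2 difference was 0.00 ± 0.13 (SE; adjusted p = 0.985), with a 95% interval of -0.30 to 0.30, and the next 2 probe sets gave -0.06 and -0.34 (adjusted p = 0.791 and 0.320). Of the other 3 Acly probe sets, 1 was dim (116.3 to 137.5) with a difference of 0.02, and 2 were under the filter, with signals of 0.8 to 19.3, and were not tested.

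Me1, the cytosolic malic enzyme, gave 9464.0, 10594.8 and 8545.0 at 5 weeks and 9269.3, 9949.7 and 10504.1 at 10 weeks on its brightest probe set. The ages overlapped, with a log2 difference of 0.06 ± 0.10 (SE; adjusted p = 0.702) that was -0.06 with quantile normalization. Its other probe set behaved differently in a single pool. There 10-week pool 1 had 5604.3, above all 5-week pools (3390.3, 4785.0 and 3837.2), while 10-week pools 2 and 3 had 2484.6 and 2590.3, below all of them. The difference of that probe set was -0.26 (adjusted p = 0.532), and -0.64 (adjusted p = 0.0206) without 10-week pool 1.

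Acaca, the enzyme of the committed step, had 6695.7, 8181.1 and 6687.3 at 5 weeks and 6122.3, 6964.7 and 6675.2 at 10 weeks. The ages overlapped, and the log2 difference of -0.12 ± 0.11 (SE) did not pass (adjusted p = 0.431; 95% interval -0.36 to 0.12). The second Acaca probe set was also split by 10-week pool 1, in the opposite direction to that of Me1: 977.5 there, below all 5-week pools (1572.2, 1800.9 and 1457.9), and 2424.9 and 2547.9 in 10-week pools 2 and 3, above all of them. Its difference was 0.18 (adjusted p = 0.703), and 0.62 (adjusted p = 0.0112) without that pool. Averaged over both probe sets, Acaca had a difference of 0.03.

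Fasn, the synthase itself, was measured by 1 probe set at 15278.7, 17488.5 and 13046.1 at 5 weeks and 12199.1, 14273.2 and 15248.4 at 10 weeks. The ranges overlapped, and the log2 difference was -0.13 ± 0.13 (SE; adjusted p = 0.475), with a 95% interval of -0.42 to 0.15. The log2 ratio of Acaca to Fasn was -1.19, -1.09 and -0.96 at 5 weeks and -0.99, -1.03 and -1.19 at 10 weeks, a change of 0.01 (exact permutation p = 1).

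Elovl6, the elongase that takes palmitate onward, had 4269.7, 5949.3 and 4188.2 at 5 weeks and 3264.0, 4179.5 and 4582.0 at 10 weeks. Its log2 difference was -0.25 ± 0.17 (SE; adjusted p = 0.289; 95% interval -0.63 to 0.12). The other 2 probe sets lay on the same side of 0, at -0.29 (adjusted p = 0.210) and -0.57 (adjusted p = 0.154), and none was called. The dimmest of them, from 201.6 to 488.2 at 5 weeks and from 162.1 to 215.4 at 10 weeks, was called without 5-week pool 3 (-0.83, adjusted p = 0.0489).

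Neither of the desaturases Scd1 and Scd2 was called. Scd1 had 16341.2, 17802.7 and 13338.6 at 5 weeks and 18218.0, 15895.1 and 17468.2 at 10 weeks, a log2 difference of 0.13 ± 0.12 (SE; adjusted p = 0.447) that was -0.06 with quantile normalization. Scd2 had 7131.8, 7887.8 and 5940.5 at 5 weeks and 6295.5, 4846.1 and 6034.9 at 10 weeks, a difference of -0.29 ± 0.14 (SE; adjusted p = 0.149). For each gene alone the ages overlapped. The log2 ratio of Scd1 to Scd2 was 1.19, 1.17 and 1.16 at 5 weeks and 1.53, 1.71 and 1.53 at 10 weeks. It was higher in every 10-week pool, by 0.41, with an exact two-sided permutation p of 0.1, the smallest that 3 against 3 allow (0.2 adjusted over 4). The change ran from 0.30 to 0.41 over the other scalings and offsets and from 0.35 to 0.44 when a pool was left out. Scd1 lay at 79.8% to 87.8% of the highest signal on each array, and the part of signal compression in this ratio was not tested. The second Scd1 probe set had 0.16 (adjusted p = 0.523), and the other 2 of Scd2 had -0.31 and -0.20 (adjusted p = 0.200 and 0.611). The brighter of these was called without 5-week pool 3 (-0.49, adjusted p = 0.0347).

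**Figure D2:**
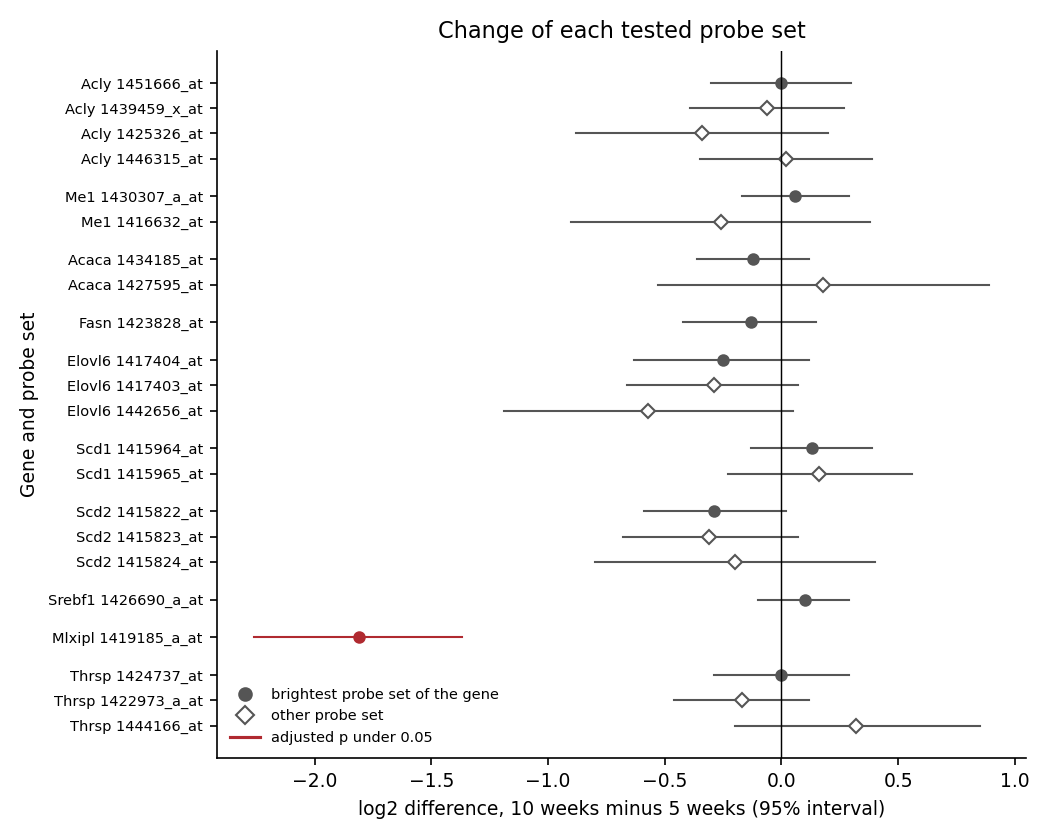
Log2 difference (10 weeks minus 5 weeks) with its 95% interval for the 22 tested probe sets of the 10 genes, filled circles for the brightest probe set of a gene and open diamonds for the others. The interval of Mlxipl (-2.26 to -1.37) lies apart from those of all other probe sets, each of which includes 0.

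For the 9 genes that were not called, the 95% intervals of the brightest probe sets lay within -0.63 and 0.39 on the log2 scale. Some of these genes had signals near the top of the arrays: those of Scd1 were 79.8% to 87.8% of the highest signal on the same array, those of Thrsp 66.5% to 85.1% and those of Fasn 54.7% to 86.3%. Acly (47.3% to 64.6%) and Me1 (41.5% to 55.7%) came next. Those of Acaca (27.4% to 43.6%), Scd2 (24.3% to 38.9%), Srebf1 (24.5% to 33.3%) and Elovl6 (14.6% to 29.3%) lay lower, and those of Mlxipl were 4.30% to 27.5%. The part of signal compression near the top in the small differences of Scd1, Thrsp and Fasn, or in the ratios that use them, was not tested. Dimmer probe sets were not called either in the main fit. Those of Thrsp had -0.17 and 0.32, those of Acly -0.06, -0.34 and 0.02, and those of Me1 and Scd1 -0.26 and 0.16. Those of Scd2 (3.56% to 20.2% of the highest signal) had -0.31 and -0.20, and those of Elovl6 (0.764% to 8.74%) -0.29 and -0.57. Without 5-week pool 3, a Scd2 probe set (-0.49) and an Elovl6 probe set (-0.83) among these were called lower.

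Pools of the same age differed in a shared way. At 5 weeks, pool 2 was the highest and pool 3 the lowest for all 10 genes, an order that 16.1% of all genes tested showed. Pool 2 exceeded pool 3 by 1.05-fold for Srebf1, by 1.22-fold for Acaca and by up to 1.61-fold for Mlxipl. The same order held for 18.6% of the 1776 genes at least as bright as the dimmest of the 10, and for 25 of the 32 genes (78.1%) at least as bright as Fasn. The highest signal on the array of 5-week pool 3 was 15339.6, below the 19161.7 to 22312.4 of the other arrays, and its part in this order was not tested. At 10 weeks, pool 1 was the lowest for 6 of the 10 and the highest for 2, and pool 3 was the highest for 6. Over all genes tested, pool 1 was the lowest in 33.2% and pool 3 the highest in 29.0%. Among the 13 adipocyte markers, 5-week pool 2 was the highest for 12 and pool 3 the lowest for 6, and the whole order held for 6. Among the 9 milk genes, pool 2 was the highest for 4 and pool 3 the lowest for 9. Among the 11 luminal epithelial markers, pool 2 was the highest for none and pool 3 the lowest for none.

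**Figure D3:**
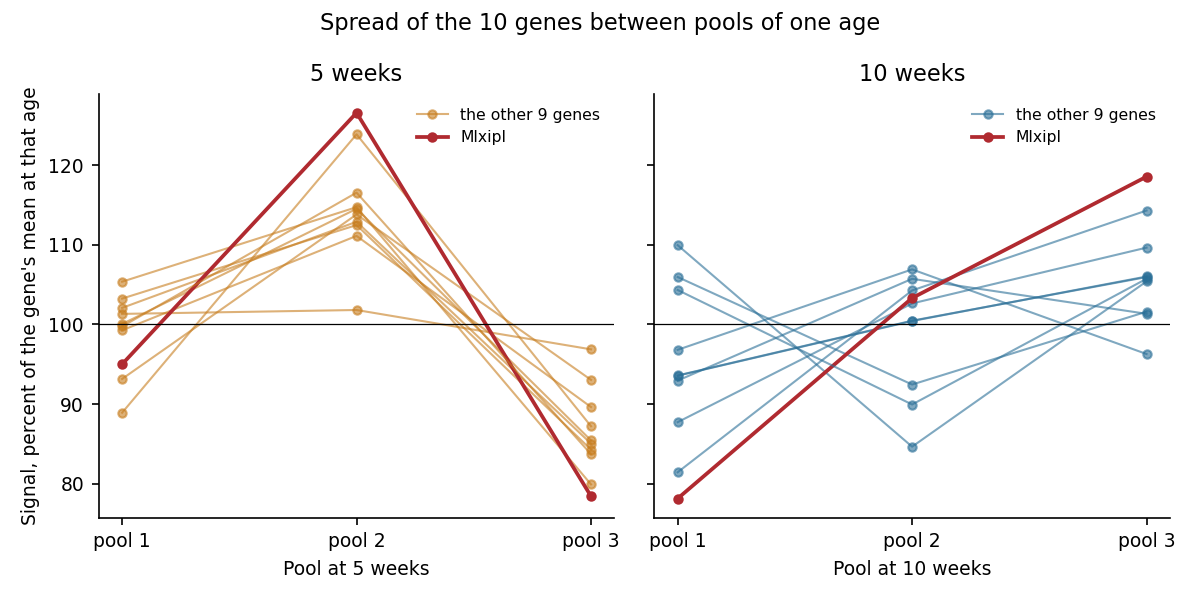
Signal of each of the 10 genes in each pool as a percent of that gene's mean at that age, at 5 weeks (left) and 10 weeks (right), with lines that only join the points of a gene since pools have no order. All 10 genes are highest in pool 2 and lowest in pool 3 at 5 weeks, and Mlxipl (red) has the widest spread there, 1.61-fold.

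Of 21 other enzymes of fatty acid synthesis, elongation, desaturation and activation measured, 8 were higher and 2 lower at 10 weeks, with a median of -0.06, beside 15.3% and 18.7% of all genes tested. The desaturases of polyunsaturated fatty acids rose: Fads1 by 1.31 (adjusted p = 7.50e-05) and Fads2 by 1.05 (adjusted p = 0.000424). Acsl4, which activates arachidonate, rose by 1.45 (adjusted p = 5.56e-05), its mean going from 1222 ± 112 (SD, n = 3) to 3397 ± 170 (SD, n = 3). The 2 that fell were Acacb, the acetyl-CoA carboxylase of the mitochondrial surface (-1.05, adjusted p = 0.0267), and Elovl3, an elongase of brown fat and skin (-1.07, adjusted p = 0.0474). The Elovl3 call was lost without any pool but 5-week pool 3 (adjusted p up to 0.139; -0.70 without 5-week pool 2) and under 4 other settings (adjusted p from 0.0617 to 0.0868). Acacb missed the threshold when 5-week pool 2 (adjusted p = 0.0752), pool 3 of that age (0.0543) or 10-week pool 1 (0.0546) was left out, with no filter (0.0535) and with a robust variance (0.0502).

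Some relatives of the 10 genes were among these, and they are named here after their values were seen. Elovl7 rose by 1.91 (adjusted p = 0.000643), with signals of 748.1, 412.4 and 417.3 at 5 weeks and 2578.3, 1826.3 and 1664.4 at 10 weeks, while Elovl6 was not called. Elovl1 rose by 0.75 (adjusted p = 0.000499). Slc25a1, the citrate carrier that feeds Acly, had -0.17 (adjusted p = 0.390). Scd3, a desaturase close in sequence to Scd1 and Scd2, rose by 0.90 (adjusted p = 0.0103), from 211 ± 44.9 (SD, n = 3) to 422 ± 84.8 (SD, n = 3). How far its probe set also detects Scd1 or Scd2 was not tested.

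Of 16 measured genes of carbon and NADPH supply, not all of which act in the cytosol, 6 were lower and 2 higher. Their median was 0.00, and 18.7% of all genes tested were lower and 15.3% higher. Of the 6, Hk2 (-1.02, adjusted p = 0.00770), Me2 (-0.92, adjusted p = 0.0418) and Me3 (-0.77, adjusted p = 0.0282) are named after their values were seen. The calls of Me2 and Me3 were lost under 8 and 4 of the alternatives (adjusted p up to 0.119 and 0.0816), and that of Hk2 was kept under all 16. Idh1, the cytosolic NADP-dependent isocitrate dehydrogenase, fell by 1.54 (adjusted p = 3.10e-05), with 7169.4, 7749.2 and 7559.4 at 5 weeks and 2436.7, 2513.8 and 2692.2 at 10 weeks. H6pd, which makes NADPH inside the endoplasmic reticulum, fell by 1.23 (adjusted p = 0.000467). The glucose transporters moved apart: Slc2a4, the insulin-responsive GLUT4 of fat and muscle, fell by 0.84 (adjusted p = 0.00637), and Slc2a1, GLUT1, rose by 1.01 (adjusted p = 0.00102). The other gene called higher was Slc25a10, the mitochondrial dicarboxylate carrier (0.35, adjusted p = 0.0268), a call lost without a variance trend (adjusted p = 0.0670) and when any pool but 5-week pool 1 or 10-week pool 3 was left out (adjusted p up to 0.0906). Pgd, an NADPH source of the pentose phosphate route that is named after its value was seen, had -0.17 (adjusted p = 0.295) and was called lower with quantile normalization (-0.29, adjusted p = 0.0337).

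Among 19 other regulators, 5 were higher and 5 lower (26.3% each), with a median of 0.00. Shares over all genes tested were 15.3% higher and 18.7% lower. Mid1ip1, the relative of Thrsp that binds acetyl-CoA carboxylase, fell by 2.05 (adjusted p = 0.000104). Its signals were 3430.3, 5006.5 and 3145.3 at 5 weeks and 876.1, 814.4 and 985.5 at 10 weeks, with no overlap, while Thrsp itself was not called. Nr1h3, the sterol sensor LXR alpha that can switch on Srebf1, fell by 0.64 (adjusted p = 0.00590). Prkaa1, a catalytic subunit of AMP kinase, had -0.59 (adjusted p = 0.0209), but missed the threshold when pool 2 or 3 of 5 weeks (adjusted p = 0.0579 and 0.0607) or pool 1 or 2 of 10 weeks (0.0544 and 0.0671) was left out. The other catalytic subunit, Prkaa2, rose by 0.86 (adjusted p = 0.000905). Usf1, an E box factor, rose by 0.99 (adjusted p = 0.0101) on its brightest probe set, from 107 to 247, but its other 2 probe sets were not called (0.22 and 0.63).

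Mlx and Mlxip were called in the opposite direction to Mlxipl, and are named here after their values were seen. Mlx, with which ChREBP binds DNA, had a difference of 0.46 (adjusted p = 0.0311), and Mlxip, the related glucose sensor MondoA, one of 0.56 (adjusted p = 0.0153). Mlx missed the threshold when pool 1 or 3 of 5 weeks (adjusted p = 0.0975 and 0.0514) or pool 1 or 2 of 10 weeks (0.0859 and 0.106) was left out, and Mlxip when 10-week pool 1 was (0.0526). Of the genes that process SREBP factors, Insig1 had -0.83 (adjusted p = 0.0226), Insig2 -0.36 (adjusted p = 0.0407) and Mbtps2 0.43 (adjusted p = 0.0189). Each of these calls was lost without some pools, with adjusted p up to 0.0673 for Insig1 (without 5-week pool 2 or 10-week pool 1) and 0.0684 for Mbtps2 (without 5-week pool 1, 5-week pool 2 or 10-week pool 1). That of Insig2 was lost without any pool but 5-week pool 1 (adjusted p up to 0.107), and under 5 other settings (adjusted p from 0.0508 to 0.153). Srebf2, which drives sterol synthesis, had -0.34 and Scap, the SREBP escort, 0.29 (adjusted p = 0.222 and 0.109), and Scap was called without 5-week pool 3 (0.40, adjusted p = 0.0376). Srebf2 and Scap are also named after their values were seen.

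Other genes known to respond to ChREBP or MondoA were measured for 6 of 7 listed. Of these 6, 2 (33.3%) were higher and none lower, with a median of 0.08. The shares over all genes tested were 15.3% higher and 18.7% lower. Arrdc4 rose by 1.56 (adjusted p = 0.000354), with 500.5, 357.3 and 377.5 at 5 weeks and 1557.1, 1090.6 and 1192.8 at 10 weeks. Txnip, the thioredoxin-interacting protein that restrains glucose uptake, rose by 0.57 (adjusted p = 0.00234), from 8150 to 12166. In both, every 10-week pool lay above every 5-week pool, opposite to Mlxipl. Gpd1, which makes the glycerol backbone of triglyceride, is named after its value was seen. It had -0.50 (adjusted p = 0.0803) and was called lower with quantile normalization (-0.58, adjusted p = 0.0457) and without 10-week pool 3 (-0.65, adjusted p = 0.0469).

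In the sterol branch, which SREBP factors also control, 4 of 15 measured genes (26.7%) were lower and 2 (13.3%) higher. Their median was -0.28, and 18.7% of all genes tested were lower and 15.3% higher. Hmgcs1, the enzyme that makes HMG-CoA for the mevalonate pathway, fell by 0.87 (adjusted p = 0.00148), Cyp51 by a log2 difference of -0.81 (adjusted p = 0.00301) and Mvk, mevalonate kinase, by one of -0.79 (adjusted p = 0.00478). Mvd rose by 0.55 (adjusted p = 0.0147), a call lost without 10-week pool 1 (adjusted p = 0.0597), and its other probe set was not called (0.53, adjusted p = 0.131). The other gene called higher was Hsd17b7 (0.54, adjusted p = 0.0123). The remaining one called lower was Fdft1, squalene synthase (-0.48, adjusted p = 0.0488), whose call was lost under 11 of the alternatives, among them each left-out pool but 5-week pool 1 (adjusted p up to 0.142).

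**Figure D4:**
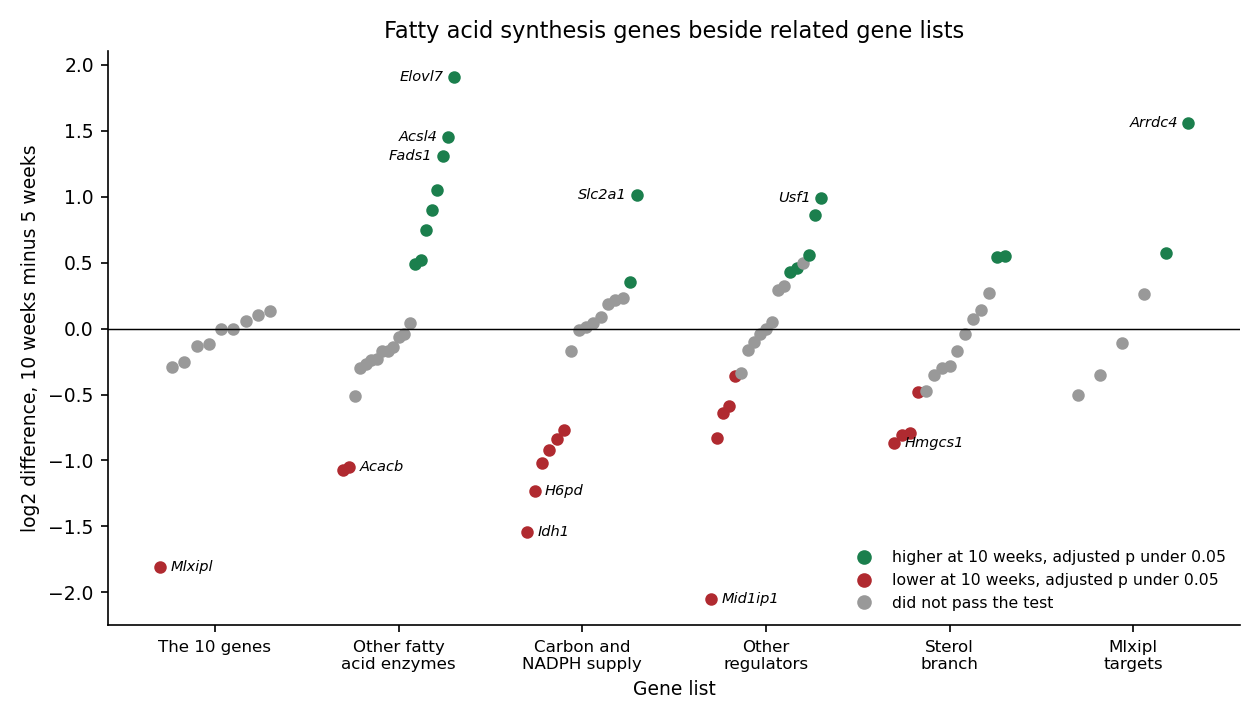
Log2 difference (10 weeks minus 5 weeks) of every measured gene in the list of 10 and in 5 related lists, coloured by whether it passed the test and in which direction, with some genes named. In the list of 10 only Mlxipl (-1.81) was called. The other lists hold calls in both directions except for the Mlxipl targets, which hold 2 higher ones.

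Markers of the cell types in the gland moved between the ages alongside Mlxipl. Of 13 adipocyte markers, 7 (53.8%) were lower at 10 weeks and none higher, with a median of -0.63. Among all genes tested, 18.7% were lower and 15.3% higher. The 6 adipocyte markers not called are named after their values were seen. They were Retn (-0.49), Adipoq (-0.22), Fabp4 (-0.04), Car3 (-0.03), Lpl (0.06) and Cd36 (0.25). Plin4, a lipid droplet protein, fell by 1.24 (adjusted p = 0.000175), Cidec, which fuses droplets, by a log2 difference of -1.44 (adjusted p = 0.00167) and the adiponectin receptor gene Adipor2 by one of -0.79 (adjusted p = 0.000374). The summed signal of the 13 was 109462 to 132492 at 5 weeks and 89998 to 106336 at 10 weeks, and no marker was near 0 (lowest signal 573.6). Of 11 luminal epithelial markers, 9 were higher and none lower, with a median of 1.06 and a summed signal of 34288 to 44282 at 5 weeks and 67253 to 76698 at 10 weeks. Muc1, an apical mucin, rose by 1.76 (adjusted p = 0.000110), Elf5, a transcription factor of milk-producing cells, by 1.20 (adjusted p = 0.000503) and the tight junction gene Cldn7 by 1.17 (adjusted p = 0.000600). The lowest signal of the luminal epithelial markers was 534.2. The part of these shifts in the difference of Mlxipl, or in the lack of calls among the other 9 genes, was not tested.

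The counts that follow stand beside 15.3% of all genes tested called higher and 18.7% called lower. Of 9 milk genes, 5 were higher and none lower (summed signal 76813 to 110872 at 5 weeks and 132946 to 152572 at 10 weeks): Btn1a1 rose by 1.63, Lalba by 1.04 and Plin2 by 0.70. Of 8 basal epithelial markers, 4 were higher, among them Krt14 (1.09), Myh11 (0.67) and Acta2 (0.34), and 2 were lower, of which Krt17 had -0.56 (18301 to 19485 and 22121 to 23452). Of 7 fibroblast markers, 6 were lower, with Mmp2 at -1.12, Col1a1 at -1.05 and Lum at -0.93 (74608 to 89114 and 51934 to 55419). Second probe sets that were not called had -0.06 for Col1a1 (adjusted p = 0.766), 0.35 for Acta2 (adjusted p = 0.151) and -0.28 for Ppargc1a (adjusted p = 0.343). Of 6 brown fat markers, 4 were lower, among them Cox7a1 (-1.39), Cox8b (-1.26) and Ppargc1a (-0.59; 21502 to 34808 and 13894 to 24100). Cidea (0.47, adjusted p = 0.161) and Dio2 (-0.20, adjusted p = 0.344) were not called and are named after their values were seen. Of 10 skeletal muscle markers, 4 were lower, among them Mylpf (-2.43), Casq1 (-2.35) and Myh2 (-2.11; 61389 to 115606 and 6258 to 48767). Of 7 lymph node markers none was called (694 to 4719 and 1131 to 1998). The 2 brightest of them were Cxcl13 (-0.35, and 0.33 without 5-week pool 2 or 0.18 without 10-week pool 1) and Cd3g (0.69, and 1.44 with adjusted p = 0.00139 without 5-week pool 2). Without 10-week pool 1, the differences shrank to -1.40 for Mylpf (adjusted p = 0.0160), -1.53 for Casq1 (adjusted p = 0.0178), -1.39 for Myh2 (adjusted p = 0.0705) and -0.70 for Cox8b (adjusted p = 0.0365). The calls of Mylpf, Casq1 and Myh2 were each lost without 5-week pool 1 or 5-week pool 3 (adjusted p up to 0.112), that of Cox8b without any 5-week pool or 10-week pool 2 (up to 0.116) and that of Cox7a1 without 5-week pool 3 (0.0529). The call of Ppargc1a was lost without any pool but 10-week pool 3 (adjusted p up to 0.127), that of Krt17 without any pool but 5-week pool 2 (up to 0.122) and that of Acta2 without 5-week pool 2, 10-week pool 1 or 10-week pool 3 (up to 0.0684). The part of these markers in the values of the 10 genes was not tested. Mlxipl was called without 10-week pool 1, the pool low in muscle markers (-1.65, adjusted p = 0.00116), as it was without any other pool.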

How the data were processed

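Total RNA of 6 mammary gland pools was labelled with UTP-biotin and hybridised to mouse arrays, per the labels. The authors deposited 1 linear signal intensity for each of 45101 probe sets and array. Each array's mean, trimmed by 2% at both ends, was 500. The signal algorithm, detection calls and array batches are not given in the sources used here.

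64 control probe sets were left out. The platform annotation gave 34945 of the other 45037 a single gene symbol, 932 more than 1 and 9160 no symbol. 34741 symbols were updated by gene identifier through RefSeq (GRCm38.p6), which also gave the start site windows. Signals under 1 were set to 1, log2(signal + 32) was taken, and probe sets in the lowest 40% by mean were dropped, leaving 27022. This offset understates differences of dim genes. Array medians lay within 0.118 on the log2 scale, and no further normalization was applied. limma 3.58.1 in R 4.3.3 fitted age alone (lmFit, eBayes with a variance trend, two-sided, Benjamini-Hochberg over all probe sets), with 4 residual degrees of freedom. The brightest probe set stood for a gene. The exact permutation test was used for ratios. The fit was tested on simulated data. Plots were drawn with matplotlib 3.10.9 in Python 3.11.15.

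All 10 genes are named. From each related or marker list, the 3 called genes with the smallest p in the main direction are named, and the largest call the other way (with no call, the 2 brightest); further names are marked as chosen after their values were seen, or complete a count of at most 5. Genes, lists and tests were chosen with earlier results of these data known. 13 listed genes were not analysed here. Alternatives changed the offset, filter, normalization, variance model, array weights and use of probe sets, and left out each pool. Pools were numbered by accession order, which pairs nothing. The number of arrays limits the precision.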

Additional observations from a re-analysis of the deposited data

How the results depend on the processing

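Mlxipl was called lower under all 16 alternatives, between -1.84 and -1.76 by setting and between -1.97 and -1.63 with a pool left out. Quantile normalization raised the genes called lower from 1 to 3 of 10 and the probe sets from 1 to 3, and reversed Me1 (-0.06), Scd1 (-0.06) and Thrsp (-0.18). Acly was 0.02 with median centring, Thrsp -0.02 with array weights, and Me1 -0.10 and Acaca 0.03 as means over probe sets. With a pool left out, 1 to 3 probe sets of the 10 genes were called lower and 0 to 1 higher. Signs turned within these ranges: Acly -0.16 to 0.10, Me1 -0.02 to 0.14, Thrsp -0.12 to 0.12, dimmer probe sets of Scd1 -0.01 to 0.29, of Acaca -0.06 to 0.62 and of Acly -0.21 to 0.04 and -0.02 to 0.08, the ratio of Acaca to Fasn -0.04 to 0.07, and Cxcl13 -0.77 to 0.33. Other fatty acid enzymes called lower numbered 0 with no filter or a robust variance, 1 with quantile normalization or no variance trend, and 0 to 2 with a pool left out. Carbon and NADPH genes called higher numbered 1 with no variance trend and 1 to 2 with a pool left out. With a pool left out, other regulators numbered 2 to 6 higher and 2 to 5 lower and sterol genes 1 to 2 higher. Mlxipl target genes called lower numbered 1 with quantile normalization and 0 to 1 with a pool left out. Over all genes, 1404 to 1745 were higher and 1850 to 2033 lower with a pool left out, against 1992 and 2436. The causes were not tested. No paired analysis was possible because the labels carry no replicate numbers.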
